A study of Mus musculus with 2 samples.

Results

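The genes described here are 45 genes of the mitotic machinery, measured by total RNA sequencing in CH12.LX, an established mouse B cell lymphoma line. They were chosen by symbol and function, not by a rule on their values, from 43346 genes in the tables, and all 45 were found. Earlier results of these data were known when they were chosen. They cover mitotic entry (Cdk1, Ccnb1, Ccnb2, Ccna2, Cdc25b, Cdc25c, Plk1, Aurka), the spindle checkpoint (Bub1, Bub1b, Bub3, Mad2l1, Ttk), anaphase onset (Cdc20, Ube2c, Pttg1, Espl1) and the centromere and kinetochore (Cenpa, Cenpe, Cenpf, Ndc80, Nuf2, Spc24, Spc25). The others belong to the chromosomal passenger complex (Aurkb, Birc5, Incenp, Cdca8), the spindle (Kif11, Kif2c, Tpx2, Nusap1), the central spindle and cytokinesis (Prc1, Kif20a, Kif23, Kif4, Ect2, Anln), and condensin I and chromosome structure (Smc2, Smc4, Ncapd2, Ncapg, Ncaph, Top2a, Mki67). The study has a single group of 2 libraries, labelled biological replicates 1 and 2, from an immortalized line of strain B10.H-2aH-4bp/Wts recorded as female and of unknown age. No allele, agent or time point is labelled, so nothing was compared between conditions. Each library has a biosample record of its own, but no source used here says that the cultures were grown separately, so differences between the libraries may be technical. How far the cultures were cycling or arrested is also not given there.

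At mitotic entry, CDK1 bound to cyclin A or B is switched on by CDC25 phosphatases and phosphorylates proteins that condense chromosomes and build the spindle. Kinetochores, assembled on CENP-A chromatin, then capture microtubules, and the spindle checkpoint holds back the anaphase-promoting complex until every chromosome is attached. Once CDC20 activates that complex, securin and cyclin B are destroyed, separase cleaves cohesin, and the central spindle directs cytokinesis. Many of these genes are transcribed mainly in G2 and M phase, so in an asynchronous population their messages come from a fraction of the cells.

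Replicate 1 held 49278383 expected counts in all and replicate 2 held 55950529. All 7 B cell markers reported (Cd79a, Cd79b, Ms4a1, Pax5, Ebf1, Cd22, Blk) reached 1 TPM in both libraries. Their summed level was 207 TPM in replicate 1 and 208 in replicate 2. Of 5 T cell markers, Cd3g and Cd3d reached that level, with a sum of 3.91 and 4.59 TPM over the whole list. None of 5 myeloid, 3 erythroid or 3 NK cell markers did. TPM is a length-corrected level, so it can be compared between genes. Protein-coding genes held 24.4% of all TPM in replicate 1 and 24.3% in replicate 2, and member levels read low for that reason.

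All 45 members were at 1 TPM or more in both libraries. The same was true of 22.1% of all genes and 41.4% of protein-coding genes. At 10 TPM or more in both libraries there were 31 members, and 41 of 125 other genes of the mitotic pathway. The share of all genes at that level was not computed. The median member level was 15.5 TPM in replicate 1 and 13.6 in replicate 2. The median protein-coding gene among those detected was at 6.67 TPM, and 36 members lay above it. Together the members made up 0.407% of protein-coding TPM in replicate 1 and 0.361% in replicate 2. In bulk RNA, fewer cells in mitosis and less RNA per mitotic cell cannot be told apart. Expected counts per member ran from 859 (lowest) to 38446 (highest).

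**Figure D1:**
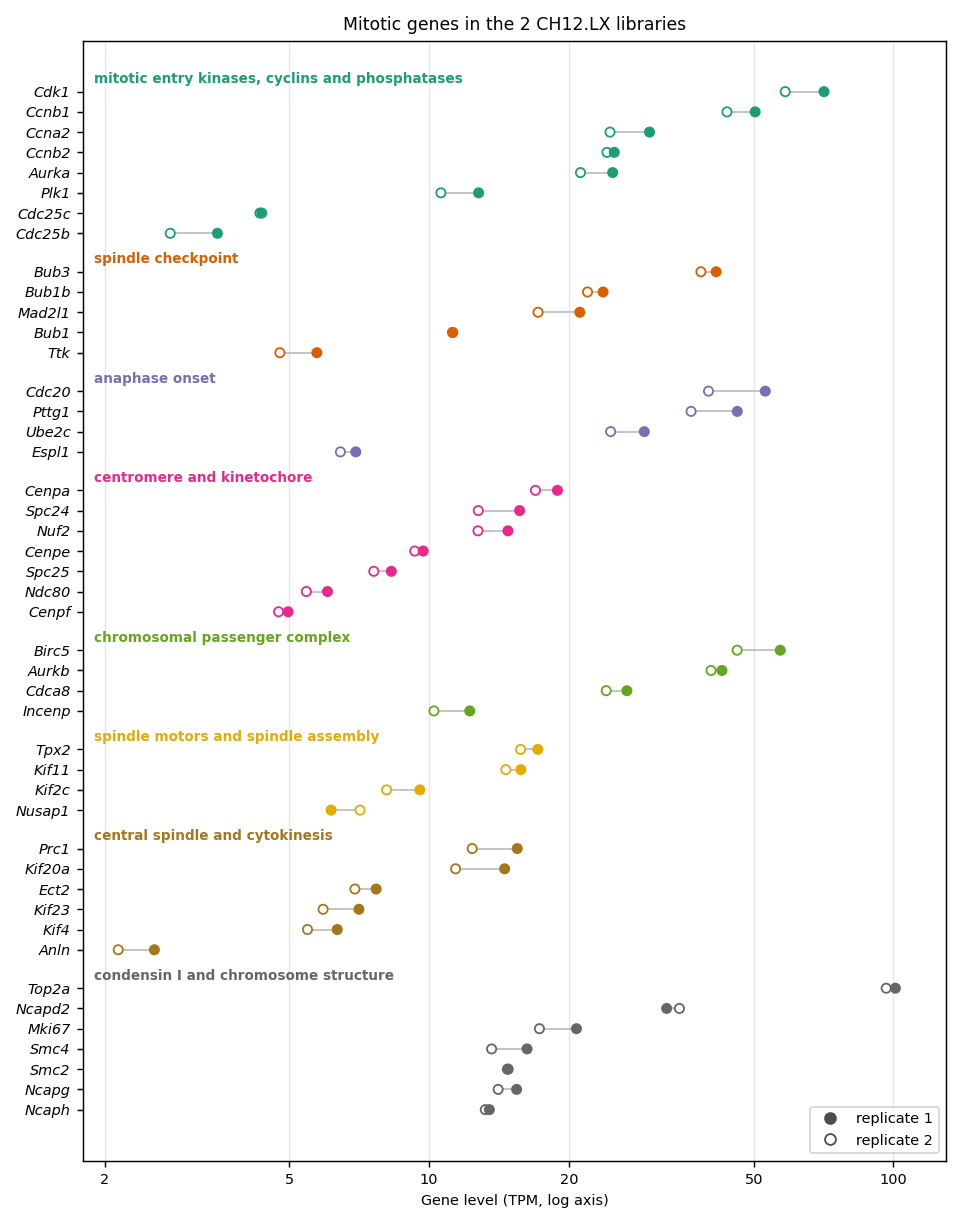
Level of each member in TPM (log axis) in replicate 1 (filled) and replicate 2 (open), grouped by role and ordered by mean. Top2a stood highest at 101 and 96.4 TPM and Anln lowest at 2.56 and 2.14 TPM, and the open point lies to the left of the filled one for 42 of 45 genes.

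The order of levels ran from Top2a, the type II topoisomerase that untangles sister chromatids, at 98.7 ± 3.17 TPM (SD, n = 2, as for all later means), to Anln, the anillin scaffold of the contractile ring, at 2.35 ± 0.297 TPM. Of the 44 pairs of neighbours in that order, 35 had overlapping replicate ranges and could not be ranked against each other. The 9 steps without overlap were Top2a over Cdk1, Cdk1 over Birc5, Bub3 over Ncapd2, Ncapd2 over Ccna2, Bub1b over Mad2l1, Bub1 over Cenpe, Cenpf over Cdc25c, Cdc25c over Cdc25b and Cdc25b over Anln. Gene levels also differed within single complexes, as described below.

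Among the mitotic entry genes, with a median level of 23.8 TPM, the kinase and its cyclins stood well above the phosphatases Cdc25b and Cdc25c. Cdk1 (ENSMUSG00000019942), the mitotic kinase itself, was at 70.8 TPM in replicate 1 and 58.5 in replicate 2. Ccnb1, the main mitotic cyclin, was at 50.4 and 43.8 TPM. Ccna2, the cyclin of S phase and G2, reached 29.8 and 24.5 TPM. Ccnb2, the second B cyclin, was at 25.0 and 24.2 TPM and so close to Ccna2 in replicate 2. Aurka, the centrosomal Aurora kinase, had 24.8 and 21.2 TPM, and Plk1, the polo kinase that promotes entry and centrosome maturation, 12.8 and 10.6 TPM. Those phosphatases were the lowest of the group: Cdc25c had 4.36 and 4.32 TPM and Cdc25b 3.50 and 2.77 TPM, with no overlap between them. Cdc25a, of the same family but not among the 45, was higher at 11.5 and 7.14 TPM. Cdk1 exceeded Ccnb2, the lowest of the kinase and its 3 cyclins by gene level, 2.83-fold in replicate 1 and 2.42-fold in replicate 2. That order did not hold on coding transcripts alone, where Ccnb1 was highest at 45.2 and 39.5 TPM, Cdk1 had 36.1 and 29.5 TPM, Ccnb2 25.0 and 24.2 TPM, and Ccna2 was lowest at 25.0 and 18.3 TPM.

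The spindle checkpoint genes had a median of 19.1 TPM. Bub3, the WD-repeat protein that brings BUB1 and BUBR1 to kinetochores, was at 41.5 and 38.5 TPM. Bub1b, which encodes BUBR1, had 23.7 and 21.9 TPM, and Mad2l1, which encodes the CDC20 inhibitor MAD2, 21.1 and 17.2 TPM. Bub1, a kinetochore kinase, was at 11.2 TPM in both libraries. Ttk, the MPS1 kinase at the top of the checkpoint, was lowest at 5.73 and 4.77 TPM. Within the mitotic checkpoint complex of Mad2l1, Bub1b, Bub3 and Cdc20, Cdc20 stood 2.51-fold above Mad2l1 in replicate 1 and 2.33-fold in replicate 2 by gene level. On coding transcripts Bub3 was level with Cdc20 in replicate 2, at 38.5 against 38.3 TPM.

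The 4 anaphase onset genes had a median of 34.1 TPM. By library it was 37.6 and 30.6 TPM, against 34.7 and 32.3 TPM for the chromosomal passenger complex, so which group was highest differed between the libraries. Cdc20, the activator of the anaphase-promoting complex, was at 53.0 TPM in replicate 1 and 40.0 in replicate 2, and Pttg1, which encodes securin, the inhibitor of separase, at 46.1 and 36.7 TPM. Ube2c, the ubiquitin-conjugating enzyme that starts chains on its substrates, had 29.1 and 24.6 TPM. Espl1, separase itself, had 6.95 and 6.44 TPM, so the message of the protease was below that of its inhibitor in both libraries.

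The centromere and kinetochore genes lay lower, at a median of 9.51 TPM. Cenpa, the centromeric histone H3 variant, was highest by gene level at 18.9 and 16.9 TPM. In the 4-subunit NDC80 complex, which binds microtubule ends, Spc24 had 15.7 and 12.8 TPM and Nuf2 14.8 and 12.7 TPM. Their partners were lower, Spc25 at 8.29 and 7.60 TPM and Ndc80 at 6.04 and 5.44 TPM. Spc24 thus exceeded Ndc80 2.59-fold in replicate 1 and 2.35-fold in replicate 2, although the proteins act in a single complex. The long kinetochore proteins were at 9.71 and 9.31 TPM for Cenpe, a plus-end-directed kinesin, and 4.97 and 4.74 TPM for Cenpf.

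The chromosomal passenger complex corrects wrong attachments through Aurora B, and its 4 genes had a median of 33.5 TPM. Birc5 (survivin), which brings the complex to the centromere, was at 57.0 and 46.1 TPM, and Aurkb, the kinase, at 42.7 and 40.5 TPM. Cdca8, which encodes borealin, had 26.7 and 24.1 TPM. Incenp, the scaffold that activates the kinase, had 12.2 and 10.2 TPM, and Birc5 exceeded it 4.66-fold in replicate 1 and 4.50-fold in replicate 2. That was the widest spread among the 5 complexes compared here by gene level.

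Spindle assembly genes had a median of 12.0 TPM. Tpx2, the activator of Aurora A on microtubules, had 17.1 and 15.7 TPM, and Kif11, the kinesin-5 that pushes the poles apart, 15.8 and 14.6 TPM. Kif2c, a microtubule-depolymerizing kinesin, followed at 9.55 and 8.10 TPM. Nusap1, a microtubule-bundling protein, was at 6.15 TPM in replicate 1 and higher in replicate 2, at 7.10 TPM.

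Central spindle and cytokinesis genes had the lowest group median, 6.90 TPM. Prc1, which bundles antiparallel microtubules, was at 15.5 and 12.4 TPM, and Kif20a (MKLP2), which carries the passenger complex to the midzone, at 14.5 and 11.4 TPM. Ect2, the exchange factor that activates RhoA, had 7.69 and 6.92 TPM, and Kif23 (MKLP1), the kinesin of the centralspindlin complex, 7.06 and 5.91 TPM. The chromokinesin Kif4 had 6.34 and 5.47 TPM. Anln, named above, was the lowest of all 45.

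Condensin I loops chromatin into rod-shaped chromosomes, and all 7 members of its group were at 10 TPM or more in both libraries. The 2 SMC ATPases were near each other, Smc4 at 16.3 and 13.6 TPM and Smc2 at 14.8 and 14.7 TPM. The kleisin Ncaph had 13.5 and 13.2 TPM and the HEAT subunit Ncapg 15.4 and 14.1 TPM. The other HEAT subunit, Ncapd2, stood out at 32.5 TPM in replicate 1 and 34.6 in replicate 2. Mki67, the Ki-67 protein that coats mitotic chromosomes, was at 20.8 and 17.3 TPM. The mean of the subunits particular to condensin I (Ncapd2, Ncapg, Ncaph) over that of condensin II (Ncapd3, Ncapg2, Ncaph2) was 1.34 in replicate 1 and 1.27 in replicate 2. With gene tables made on 2 older annotation releases the mean ratio was 1.08 (M2) and 1.40 (M3), against 1.31, and the level of Ncapd2 moved with it, from 33.5 TPM to 22.9 and 38.5 TPM.

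A gene's TPM is the sum over its listed transcripts, and a short transcript earns many TPM from few reads. The members had 216 transcripts listed. Those annotated as protein coding held 96.1% ± 0.113 of the members' counts but 86.5% ± 0.693 of their TPM. Transcripts annotated as retained introns held 7.09% of TPM and 1.74% of counts, and processed transcripts 5.12% and 1.39%. In 22 members a single transcript held 90% or more of the gene by TPM in both libraries, of which 13 have only 1 transcript listed. In the other 23 the TPM was divided. The highest transcript was protein coding in every member.

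Cdk1 had the lowest coding share of TPM. Its coding transcript Cdk1-202, of 1253 nucleotides and 9 exons, held 47.9% ± 0.121 of the gene's TPM and 70.1% ± 1.48 of its counts. Cdk1-204, annotated as a retained intron, is 475 nucleotides long with 4 exons and held 39.9% ± 2.06 of TPM and 16.7% ± 0.741 of counts. Its level was 29.3 TPM in replicate 1 and 22.5 in replicate 2, from 1024 and 840 expected counts. The last 86 bases of that transcript are printed because they are where it departs from the coding form, and their ends were taken from GRCm38 annotation. The first 30 are exon shared with Cdk1-202, and the capitals mark the first 2 bases of the 56 that run on into the intron.
Cdk1-204 end, chr10:69345005-69345090, minus strand: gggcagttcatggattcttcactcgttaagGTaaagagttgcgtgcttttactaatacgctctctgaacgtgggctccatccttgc
Over coding transcripts alone, Cdk1 was at 36.1 and 29.5 TPM, and moved from rank 2 to rank 8 among the members.

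Top2a had the same feature. Top2a-201, the coding transcript of 5221 nucleotides, held 60.0% ± 0.034 of TPM but 91.7% ± 0.173 of counts. Top2a-207, a processed transcript of 803 nucleotides and 5 exons at the 3′ end of the gene (chromosome 11, 98993071 to 98995724), held 29.4% ± 1.85 of TPM and 5.69% ± 0.334 of counts. Coding transcripts of Top2a alone came to 60.5 TPM in replicate 1 and 57.8 in replicate 2. It was still the highest member by that measure, with Birc5 next at 57.0 and 46.1 TPM, and its lower value lay just above the higher value of Birc5.

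In 12 members coding transcripts held under 90% of TPM. Ncapd2-201, the full-length coding form, had 61.4% ± 0.764 of its gene's TPM and 93.3% ± 0.0454 of counts, and the retained introns Ncapd2-206 and Ncapd2-208 had 10.7% and 12.0% of TPM. On coding transcripts alone Ncapd2 was at 20.8 and 21.9 TPM and moved from rank 9 to rank 15, closer to its condensin partners. A small RNA gene, Scarna10, lies on the same strand within a listed form of Ncapd2 (Ncapd2-203) and shares 237 bases with it; it was at 222 TPM in replicate 1 and 108 in replicate 2, and its part in the Ncapd2 values was not tested. Ccna2-201 held 83.8% of the Ccna2 TPM in replicate 1 and 74.5% in replicate 2, while Ccna2-203, annotated as a target of nonsense-mediated decay, held 14.6% and 22.5%. The deposited credibility bounds of Ccna2-203 overlapped between the libraries. Those of Ccna2-201, at 25.0 TPM in replicate 1 and 18.3 in replicate 2, did not.

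Some members were divided between coding forms, in part or in whole. Ccnb1-201 held 73.3% ± 4.03 of TPM and the shorter Ccnb1-207 13.8% ± 2.97. Retained introns of Ccnb1 held 10.2% in replicate 1 and 9.80% in replicate 2. For Pttg1 the split was 61.2% ± 0.958 for Pttg1-203 and 30.6% ± 2.15 for Pttg1-202, which differ little in length (700 and 741 nucleotides). Aurka-203 had 88.4% ± 1.24 of its gene. Aurkb-201 had 83.7% ± 0.0133, where all coding forms of Aurkb together held 88.3% in replicate 1 and 88.8% in replicate 2. The rest of Aurkb was in retained introns and processed transcripts.

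The same transcript was highest in both libraries in 43 members. The exceptions were Kif20a and Smc4, and they are described, with Smc2 and Cenpa, because of their values. Kif20a-201 and Kif20a-202 are 3567 and 3565 nucleotides long, and the share of Kif20a-201 was 57.4% in replicate 1 and 37.2% in replicate 2 with overlapping bounds. Smc4-202 and Smc4-201 had 41.8% and 38.8% in replicate 1 and 40.5% and 41.4% in replicate 2. In Smc2, the processed transcript Smc2-203 of 643 nucleotides held 13.0% of TPM in replicate 1 and 30.7% in replicate 2, from 103 and 261 counts. The Smc2 gene level was thus nearly equal in the libraries (14.8 and 14.7 TPM), whereas its coding transcripts had 12.7 TPM in replicate 1 and 10.2 in replicate 2. Of these, Smc2-202 (5328 nucleotides) had 1.75 TPM in replicate 1 and 0 in replicate 2, from 1000 and 2.04 counts. Smc2-201 (5404 nucleotides) had 10.9 and 10.1 TPM with overlapping bounds, from 6302 and 6401 counts. Cenpa-202, annotated as a target of nonsense-mediated decay, held 27.9% ± 1.29 of TPM, and the coding transcripts of Cenpa had 10.9 and 9.74 TPM, which moved it from rank 18 to rank 31.

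**Figure D2:**
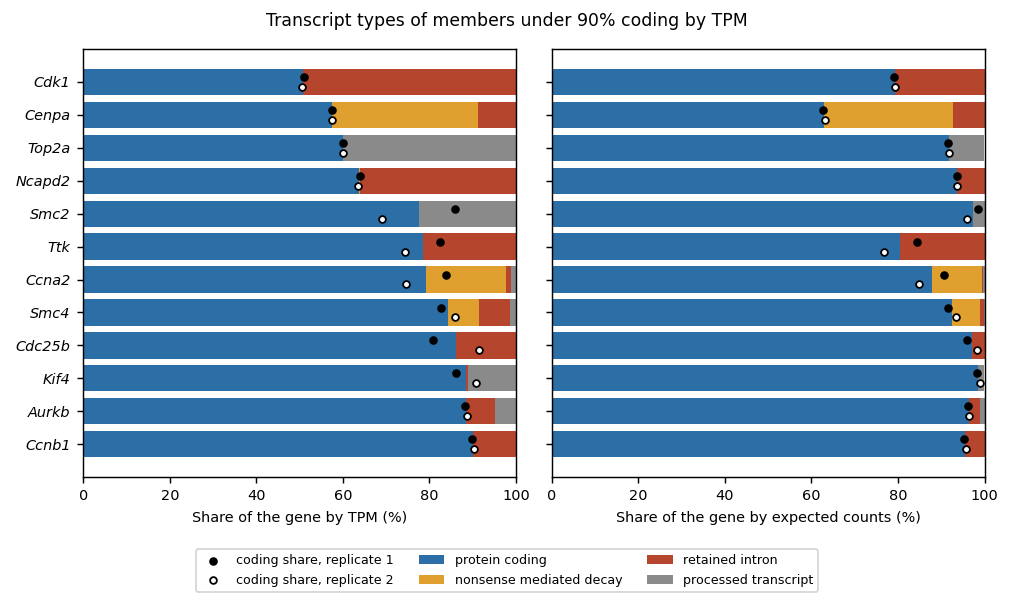
Share of each gene by transcript type, by TPM (left) and by expected counts (right), for the 12 members with under 90% of TPM in coding transcripts; bars are means of the 2 libraries and points the coding share in each. Top2a and Ncapd2 are mostly coding by counts (right) and much less so by TPM (left), whereas Cenpa is divided on both scales.

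Reads can also be shared with neighbouring genes. Exons of 11 members overlap exons of an opposite-strand gene that the tables also list, among them Kif20a with Cdc23 (977 bases), Ncapg with Lcorl (699), Kif4 with Pdzd11 (683), Prc1 with Rccd1 (670), Ccna2 with Exosc9 (428) and Nusap1 with Oip5 (172). Whether the counting used strand is not given in the sources used here, so the values of these members are uncertain to that degree.

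The promoters of cell cycle genes of late phases often carry a CHR, whose letters are TTTGAA and which binds the MuvB core of the DREAM and B-MYB complexes, and CCAAT boxes, which bind NF-Y. Promoter windows from RefSeq on GRCm38.p6, from 250 bases before to 50 after the start, were found for 37 of 45 members. The 3 printed here are of the highest members of their groups and show the letters near the start; capitals mark TTTGAA or CCAAT or, where the motif is on the other strand, TTCAAA or ATTGG.
Top2a promoter, chr11:99024190-99024309, minus strand: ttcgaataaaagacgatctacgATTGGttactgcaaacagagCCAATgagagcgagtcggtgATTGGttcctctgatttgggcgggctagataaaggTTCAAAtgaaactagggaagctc
Cdk1 promoter, chr10:69352939-69353032, minus strand: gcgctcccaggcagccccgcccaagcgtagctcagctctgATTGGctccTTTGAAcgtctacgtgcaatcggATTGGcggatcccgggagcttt
Cdc20 promoter, chr4:118437353-118437463, minus strand: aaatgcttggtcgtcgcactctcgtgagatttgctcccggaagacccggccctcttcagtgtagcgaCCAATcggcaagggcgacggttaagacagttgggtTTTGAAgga
The Top2a stretch holds the 120 bases before the start. Those of Cdk1 (94 bases) and Cdc20 (111 bases) leave out the 26 and 9 bases nearest the start, which the M21 annotation places inside the gene.

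TTTGAA, on either strand, was in 27 of 37 member promoters, or 73.0%. It was in 20.2% of the 27025 genes with a window, in 14.8% of 7135 detected protein-coding genes and in 37.0% of 108 other genes of the mitotic pathway. CCAAT was in 28 of 37 members (75.7%), against 41.1%, 44.0% and 55.6% of those 3 sets. Both motifs were in 24 members (64.9%), against 7.97%, 6.39% and 24.1%. TTTGAA began within 50 bases of the start in 24 members, a count not made for the other sets. In a shorter window, from 100 bases before to 50 after the start, TTTGAA was in 67.6% of member promoters. The shares of the 3 sets there were 9.23%, 6.05% and 27.8%. Within 120 bases before the start, TTTGAA of Top2a began at 23 bases, with CCAAT at 98, 78 and 58. In the same stretch Cdk1 has TTTGAA at 71 and 15 bases before the start and CCAAT at 80 and 48, and Cdc20 has TTTGAA at 18 and CCAAT at 53 and 8. Top2a and Cdk1 have further matches upstream of it, shown in the plot of motif positions. CCAAT pairs on 1 strand 31 to 34 bases apart occurred in 7 of 37 members (18.9%) and in 1.04%, 2.21% and 5.56% of the 3 sets. That spacing was chosen after the positions were seen, so these shares cannot show whether it is particular to the members. Birc5, Mad2l1, Ncaph, Nuf2, Nusap1 and Pttg1 had neither motif in the window. A match says only that these letters are present there, and binding was not measured.

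**Figure D3:**
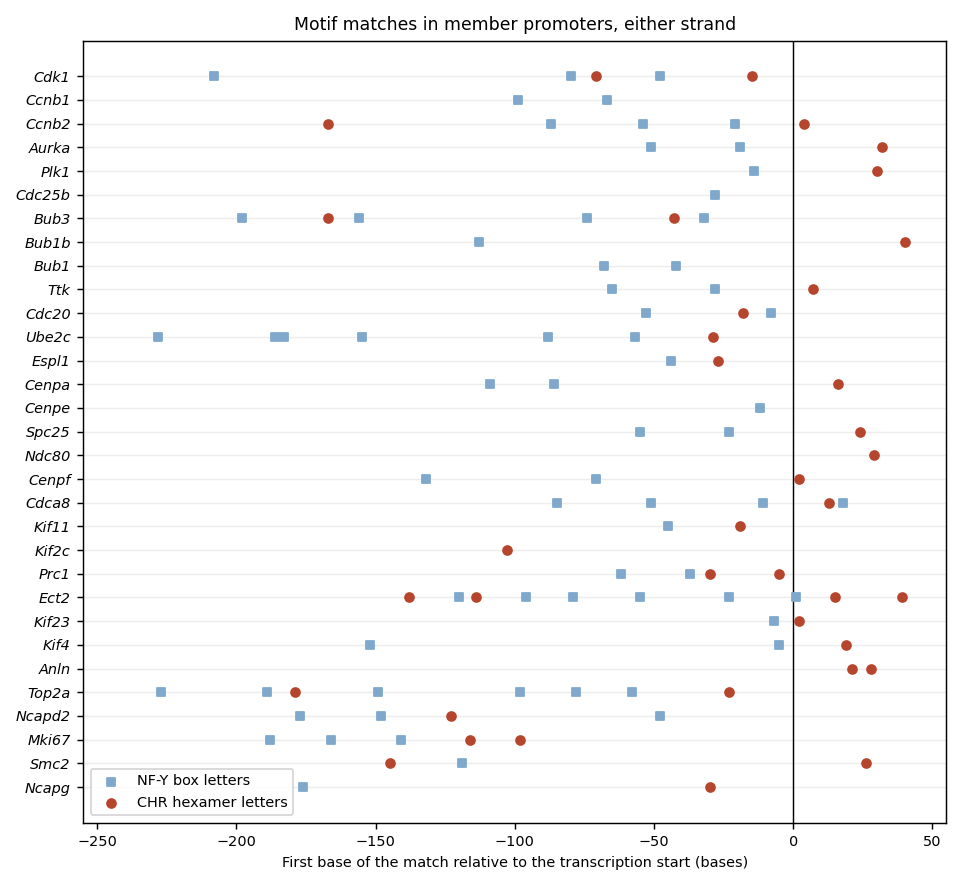
Position of each motif match relative to the transcription start (0), in bases, for the 31 members with a match, from 250 bases before to 50 after; circles are the CHR hexamer and squares the NF-Y box, on either strand. In 24 members a circle lies within 50 bases of the start, and most squares lie before the start.

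Between the libraries most members differed in the same direction, by a small amount. Of 45 members, 42 had a lower TPM in replicate 2, where 56.1% of the 9851 genes with a mean of at least 1 TPM were lower. The median log2 ratio of replicate 2 over replicate 1 (TPM with 0.1 added) was -0.20 over the members and -0.04 over all those genes. No member lay outside the central 95% of all genes, which ran from -0.59 to 0.76. By group the median log2 ratio was -0.28 for anaphase onset, -0.25 for mitotic entry, -0.25 for cytokinesis, -0.20 for the passenger complex, -0.15 for the kinetochore, -0.11 for the checkpoint, -0.11 for the spindle and -0.07 for condensin and chromosome structure. The members higher in replicate 2 were Nusap1, Ncapd2 and, by less than its counting error, Bub1, and on the scale of scaled counts also Cdc25c, which left 41 lower.

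With 1 library a side the difference has no replicate check. The exact conditional binomial test used here takes only counting error into account, and what it compares is 2 libraries of the same line. By that test, at a Benjamini-Hochberg adjusted p of 0.05 and with a minimum ratio of 2, none of the 45 members was called, against 4.70% of 15438 genes. Without the ratio threshold the same test called 35 members lower in replicate 2, where 25.1% of all genes were called lower. It called 2 members higher (Nusap1 and Ncapd2), where 25.2% of all genes were. Those shares cover genes with as few as 10 counts summed, while each member had at least 859 counts in each library. A counting test finds small differences more readily at high counts, and a share matched for counts was not computed.

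The largest difference was that of Cdc20, at 53.0 TPM in replicate 1 and 40.0 in replicate 2. Its log2 ratio of scaled counts was -0.39, with a 95% counting interval from -0.44 to -0.35 and an adjusted p of 3.71e-69 in the exact binomial test. Ccna2 followed on the count scale at -0.33, then Kif20a at -0.32 and Pttg1 at -0.32. Top2a, the highest member, had a log2 count ratio of only -0.04, with an interval from -0.06 to -0.02. In the other direction, Nusap1 was at 0.23, from 0.14 to 0.31, and Ncapd2 at 0.09, from 0.05 to 0.13. Smc2 had a log2 TPM ratio of -0.01 but a log2 count ratio of -0.25, from -0.30 to -0.21. Its unscaled expected counts were 6302 and 6401 for the coding form Smc2-201, but 1000 and 2.04 for the coding form Smc2-202. The authors' deposited credibility bounds of TPM did not overlap between the libraries for 33 members, of which 32 were lower in replicate 2. The same share over all genes was not computed, so this count cannot be read as particular to the members. The 8 members not called in either direction were Bub1, Ccnb2, Aurkb, Cdc25c, Cenpe, Cenpf, Spc25 and Ncaph.

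**Figure D4:**
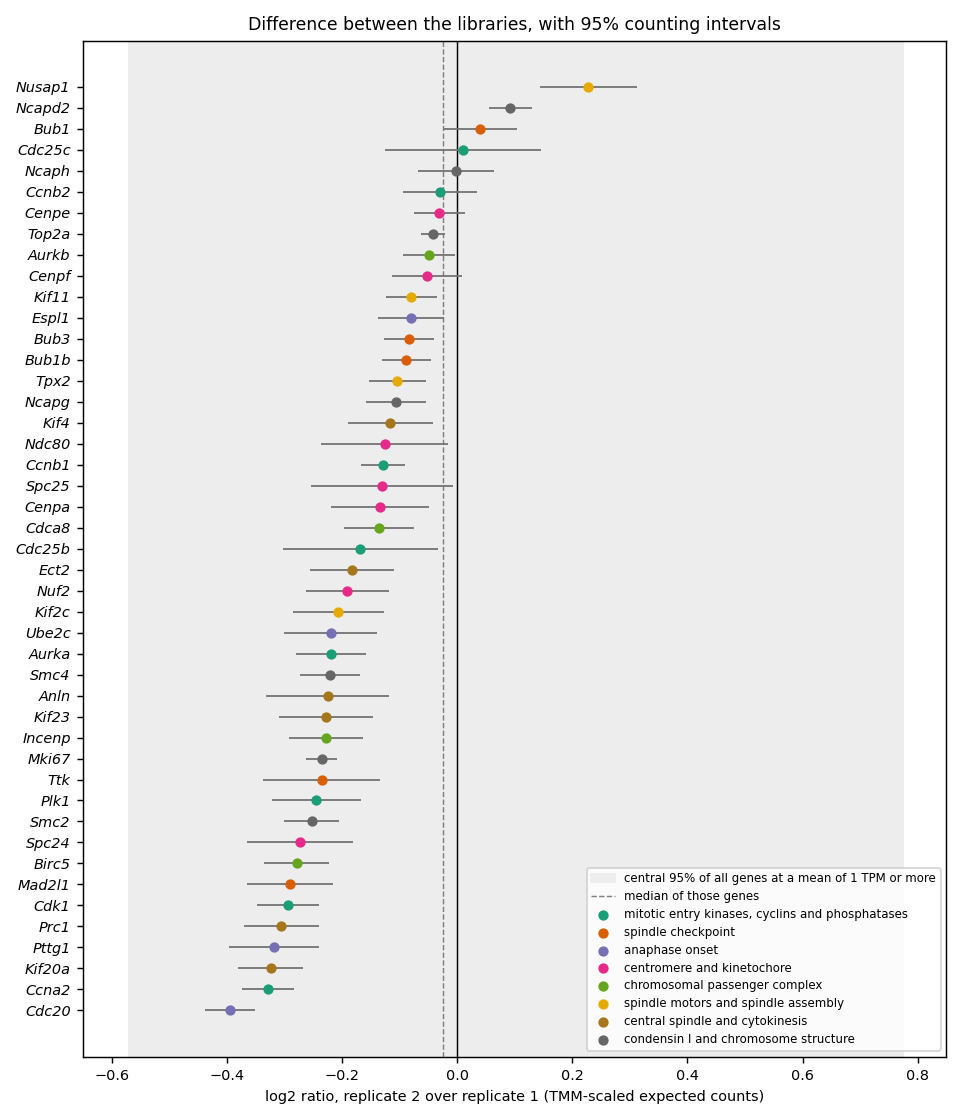
Log2 ratio of replicate 2 over replicate 1 of TMM-scaled expected counts for each member (points, coloured by role) with its 95% counting interval (bars); the grey band is the central 95% of genes with a mean of at least 1 TPM and the dashed line their median. All members lie inside the band, from Cdc20 at -0.39 to Nusap1 at 0.23.

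Of 125 other genes listed for the same pathways, 120 reached 1 TPM in both libraries. Their median level was 6.53 TPM, against 14.8 TPM for the members. Of the 121 with a mean of at least 1 TPM, 91 had the lower TPM in replicate 2, against 56.1% of all genes at that level, and the median log2 ratio was -0.17. By the exact binomial test with a ratio of at least 2, 0 of them were called (4.70% of all genes). Without the ratio threshold 71 were lower, against 25.1% of all genes, and 15 higher, against 25.2%. The counts for each list below come from the test without the ratio threshold, so those 2 shares are given beside them. They are not matched for counts, as said above.

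All 33 other kinetochore and centromere genes were detected. They ran from Zwint, a partner of the ZW10 complex, at 50.2 and 41.5 TPM, to Cenpl, of the inner kinetochore, at 1.34 and 1.11 TPM. In the exact binomial test with no ratio threshold 19 were lower (25.1% of all genes) and 2 higher (25.2%) in replicate 2. The 25 other spindle genes ran from Tubg1, the gamma-tubulin of microtubule nucleation, at 28.0 and 25.7 TPM, to the kinesin Kif14 at 2.02 and 1.73 TPM, with 20 lower and 3 higher. All 18 genes of the anaphase-promoting complex and its regulators were detected. The highest was Ube2s, the enzyme that extends ubiquitin chains, at 91.4 and 71.3 TPM, which is above its partner Ube2c. Anapc10, a subunit that helps bind substrates, was lowest at 1.70 and 1.19 TPM, and 9 of the 18 were lower and 2 higher.

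Of 19 other regulators of mitotic entry 17 were detected, with 9 lower and 2 higher in the same test. Arpp19, which as a phosphoprotein inhibits the phosphatase PP2A-B55, was highest at 78.0 and 63.1 TPM. The cyclins Ccnb3 and Ccna1, known from the germ line, had 0 counts in both libraries. A floor of 3 counts per library would be 0.00623 TPM for Ccnb3 and 0.0193 TPM for Ccna1 in replicate 1. Among 10 further cytokinesis genes 9 were detected, from the septin Sept9 at 28.7 and 30.8 TPM down to Rtkn, rhotekin, which at 0.15 and 0.10 TPM did not reach the threshold, and 5 were lower and 2 higher. The 3 subunits of condensin II were Ncaph2, at 32.6 and 36.5 TPM, Ncapg2, and Ncapd3, the lowest at 5.89 and 5.94 TPM. Ncaph2 shares 829 bases of exon with Sco2 and 535 with Tymp. Of 17 genes of the DREAM, MuvB and FOXM1 transcription machinery 15 were detected. Tfdp1, the E2F dimerization partner, was highest at 59.2 and 49.0 TPM and the repressor E2f7 lowest at 0.43 and 0.27 TPM, with 8 lower and 3 higher.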

How the data were processed

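Total RNA of CH12.LX was sequenced in 2 libraries, with gene tables for 3 annotation releases (M2, M3, M4) and an M4 transcript table, all on mm10, per the labels and the deposited manifests. The sources used here do not give the aligner, the quantifier or the strand setting of the counting. The deposited expected counts, estimates for each gene or transcript per the file headers, were rounded to whole numbers for the count test. The deposited TPM values are the levels used, per the file headers. The deposited FPKM values, per the file headers, and the posterior mean TPM served only as alternatives. The deposited percent values give each transcript's share of its gene, per the file headers. Shares computed here differed from them by at most 0.143 percentage points. The deposited credibility bounds of TPM are the other columns used. Rows with numeric identifiers name no gene, held 5.68e-05% and 5.36e-05% of counts, and were left out.

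The M4 gene tables were the main ones. Symbols, transcript types and coordinates came from GENCODE M21, where 42462 of 43346 genes matched, and Sept9 was matched through a RefSeq synonym of its listed name. Library totals were 49278383 and 55950529 expected counts. The counts of the 2 libraries differed beyond counting noise (chi-square of 172 per degree of freedom over 15438 genes), so they are not copies of 1 library. This does not show whether the cultures were separate. Detection meant 1 TPM or more in each library. Genes with at least 10 rounded counts summed were compared by a two-sided exact conditional binomial test on TMM effective library sizes (edgeR 4.0.16 in R 4.3.3), with Benjamini-Hochberg adjustment over all genes tested. The test was tested on simulated data with counting error only. That check does not cover differences beyond counting noise, which these libraries have. Count ratios had 0.5 added to each count. edgeR's quasi-likelihood test needs replicates on a side and was not used. DESeq2 1.42.0 gave alternative size factors. The rest was computed with pandas 2.3.3, numpy 2.4.6 and scipy 1.17.1 under Python 3.11.15 and drawn with matplotlib 3.10.9.

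The members and lists were chosen with earlier results of these data known. All members are named, as are the highest and lowest gene of each other list, and transcripts with at least 10% of a gene in both libraries for the 8 highest members without a transcript at 90%. Ncapd2-208 is also named, although its share was 9.95% in replicate 1 and 14.0% in replicate 2. Promoters were to be printed for the 4 highest group leaders with a motif. That of Bub3 lies within its gene by M21 and is not shown. A listed cell type marker is not reported here.

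The alternatives were the other annotation releases, the posterior mean, FPKM, other scales, filters, pseudocounts and ratio thresholds, each library alone, shares by counts and a shorter promoter window. Levels from coding transcripts alone were added after the data were seen.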

Additional observations from a re-analysis of the deposited data

How the results depend on the processing

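No paired analysis was possible because the study has 1 group. With levels as TPM of protein-coding genes the median member level was 60.6, with coding transcripts alone (added after the data were seen) 13.0 and as FPKM 32.5, against 14.8 TPM. With no ratio threshold 37 members were called instead of 0, while of all genes 25.1% were called lower and 25.2% higher instead of 4.70% in either direction. Those shares are not matched to the members for counts. The ratio of condensin I to condensin II was 1.08 with the M2 tables and 1.40 with the M3 tables, against 1.31. The log2 ratio of Cdc25c was 0.0095 with TMM-scaled counts and -0.013 by TPM. From 41 to 43 members were lower in replicate 2 over the settings run. The gene level moved by more than its SD for 7 members with M2, 7 with M3, 2 with the posterior mean and 17 with coding transcripts alone. An SD of 2 libraries can be very small, so such a move can be slight. Bub1, with an SD of 0.007, went from 11.2 to 11.6 TPM with M2. Ncapd2 went from 33.5 TPM to 22.9 with M2 and 38.5 with M3. Causes were not tested. With 1 library a side, counting intervals cover counting error only, and their median half-width was 0.064 (log2).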
